A study of Mus musculus with 2 samples.

Results

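Mouse embryonic stem cells that carried an extra chromosome 8 at an early passage were compared with cells of the same library without one. Among 14079 single cells that passed the gates for undifferentiated stem cells, 952 had a chromosome 8 gain alone (6.76%, exact binomial 95% interval 6.35 to 7.19%) and 11990 had no gain of chromosomes 1, 8 or 14. All came from C3H/HeSn-Paf/J, an inbred strain, through 9 lines, 3 each with XX, XO and XY sex chromosomes, pooled into 1 droplet library at the first time point. A second library of the same pool, taken after 10 further passages, was not used to choose these cells and is read beside it. The lines grew on irradiated fibroblast feeders in medium with serum and leukaemia inhibitory factor, and gain and no-gain cells were captured and sequenced in 1 library. Cells were not assigned to lines. The cells of a time point therefore count as 1 sample, no test between gain and no gain was made, and every interval below covers counting error only.

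Gain of a whole chromosome 8 is a recurrent change of cultured mouse embryonic stem cells, in which cells with the gain can overgrow a dish. An extra copy adds template for every gene of the chromosome at once, and transcript amounts usually follow the copy number unless a gene is regulated by feedback. Proteins made in excess of their complex partners are often degraded, so an extra chromosome can change proteins and messenger RNA in different ways. Chromosome 8 carries Klf2 and Zfp42 (also called Rex1), a transcription factor and a marker of the naive, undifferentiated state, which makes that pathway a natural one to read in these cells. Embryonic stem cells with a pair of active X chromosomes are a second source of expression differences in such a pool, since X dosage is known to act on MAPK signalling, DNA methylation and imprinted loci.

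Cells were chosen by the RNA itself. A cell had at least 18000 unique molecular identifiers (UMIs, which tag single captured RNA molecules), no fewer than 1000 genes and a mitochondrial share of up to 10%, which 25962 barcodes met. The gates then asked for at least 10 UMIs of Pou5f1, the Oct4 gene of pluripotent cells, fewer than 5 of the fibroblast genes Col1a1 and Bgn summed, and fewer than 5 of Fgf5, Fgf8 and Car2 summed. For each remaining cell r8 was the UMIs on chromosome 8 over those on the 16 autosomes other than 1, 8 and 14 (the reference autosomes), set to 1 at the median gated cell, and r1 and r14 were made alike. A gain had r8 of at least 1.3 with r1 and r14 below 1.15, and no gain had all 3 below 1.15. Of the other 1137 cells, 387 had r8 between those limits, 33 had a high r8 with r1 or r14 raised, and 717 had r1 or r14 raised with r8 below the gain limit. Because r8 chose the groups, the chromosome 8 levels below are a description and support nothing by themselves.

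In the gain cells r8 had a median of 1.42 and reached 1.88, with a middle range of 1.37 to 1.48, and in the no-gain cells its median was 0.993. The 20 cells just inside the gain limit had r8 from the limit itself to 1.305, and the 20 just outside it from 1.29 to 1.298. Both edges had about the same X dosage, with medians of 1.007 and 1.008. X dosage is here the UMIs of X-linked genes without Xist over those of the reference autosomes, set to 1 at the median first-library cell with at least 2 Y UMIs, and values below 1.2 are called low X. The gain fell almost entirely among low-X cells: 910 of 6426 low-X cells had it (14.2%, 13.3 to 15.0%) against 42 of 7653 cells of higher X dosage (0.549%, 0.396 to 0.741%). In the low-X cells r8 formed a separate hump around 1.4, while in the others it tailed off without one, as the plot of r8 by X dosage shows.

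**Figure D1:**
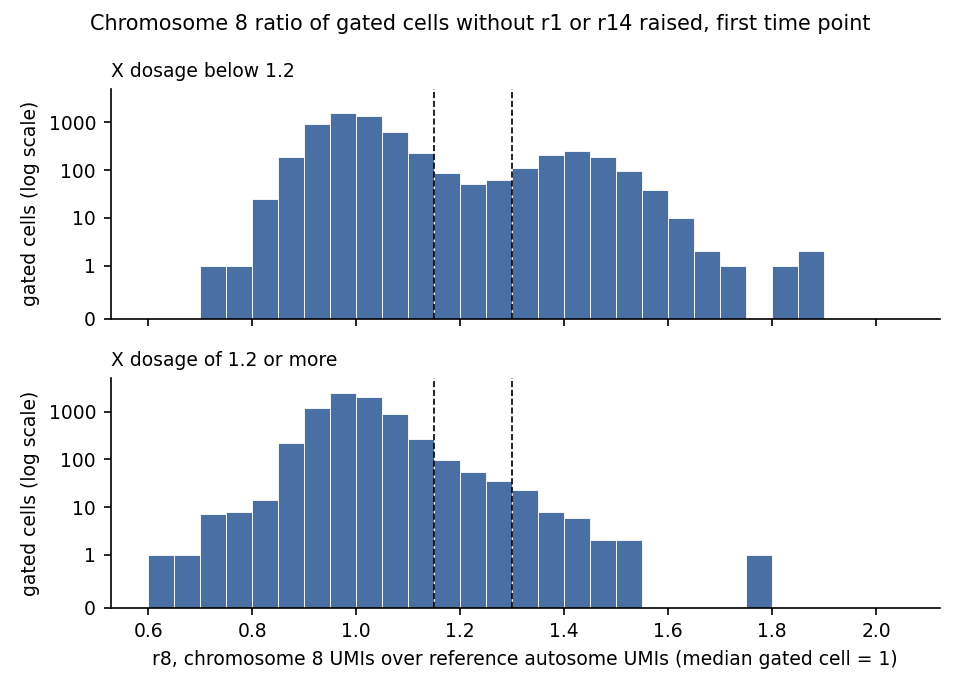
Number of gated cells with r1 and r14 below 1.15 (log scale) by r8 in bins of 0.05, for cells of X dosage below 1.2 (top) and of 1.2 or more (bottom); dashed lines mark the limits of 1.15 and 1.3. A second hump lies past 1.3 in the top panel, with 910 cells called gain alone, against 42 in the bottom panel.

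X dosage therefore differed between the groups before any other gene was read. Low X held for 95.6% of gain cells and 40.9% of no-gain cells, and the median X dosage was 0.984 and 1.35. At least 2 Y UMIs were seen in 1.68% of gain cells (0.964 to 2.71%), in 18.6% of low-X no-gain cells and in 1.86% of no-gain cells of higher X dosage, whose share serves as the background of free Y-linked RNA. Median depth was 45645 UMIs in the gain cells, 42940.5 in the low-X no-gain cells and 42967.5 in the others. When each cell was thinned to 18000 UMIs, 3.36%, 19.8% and 6.06% of these classes kept a Y UMI, so the early gain cells were at or below the background. Levels here and below are summed UMIs per 1000000 UMIs on the reference autosomes, written UPM. Xist, the RNA that coats the inactive X, stood at 7.81 UPM in gain cells and 94.5 UPM in the no-gain cells of higher X dosage. Within low-X cells it still differed, at 5.84 UPM with the gain and 16.1 without. Line, sex chromosomes and gain cannot be told apart in a pool. Gene groups are therefore read mainly in low-X cells, where 910 gain cells met 4900 no-gain cells, and counts in all gated cells are added for some groups.

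The labelled cell type fitted its markers, but the choice of cells had fixed part of this reading. The gates required Pou5f1, a pluripotency marker, and limited 3 primed-state genes and 2 fibroblast genes. Zfp42, another pluripotency marker, lies on chromosome 8 and so counted in r8. The 12 pluripotency markers summed to 9590 UPM in gain and 12800 in no-gain cells, or 9438 and 10695 in low-X cells. None was at 0, and although both sums were lower, 6 of the 12 were higher in gain cells and 8 in low-X gain cells. Of the markers of other types, the 6 primed epiblast genes were the highest, at 245 against 286 UPM, or 246 against 361 in low-X cells, although the gates had limited 3 of them. Then 7 primitive endoderm genes summed to 4.28 against 7.71, 6 mesendoderm genes to 6.34 against 10.1, and 6 two-cell-like genes to 2.73 against 7.84. The 6 trophoblast genes summed to 116 against 154, and in low-X cells to 114 against 119, where 3 of the 6 were higher in gain cells. The 10 fibroblast genes summed to 142 against 120 UPM, mostly Fn1, though only 2 of them were higher in gain cells and 3 in low-X gain cells. Their part in the results was not tested. The first library held 1735810403 UMIs in 145288 barcodes, and 75 gated barcodes recur in the second library.

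Chromosome 8 stood alone among the autosomes, which the rule had largely set. It kept r1 and r14 low in both groups, and the 16 reference autosomes together are the scale itself. Its summed level in gain cells was 1.44 times that of no-gain cells, just short of the ratio of 1.5 that 3 copies over 2 would give. The other 18 autosomes lay between 0.966 (chromosome 9) and 1.024 (chromosome 3). The X was at 0.711 in all gated cells and at 0.981 among low-X cells, where the autosomes other than 8 ran from 0.962 to 1.027. Along chromosome 8 the excess was spread over its whole length. In 13 bins of 10 megabases, and without the 5 genes that each gave over 3% of its UMIs, ratios ran from 1.29 in the first bin to 1.501 between 90 and 100 megabases, and from 1.302 to 1.49 in low-X cells. The abundant genes included Rpl13 (17.7% of the chromosome's UMIs), Cox4i1 (3.70%), Hmgb2 (3.64%) and Mt1 (3.46%).

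**Figure D2:**
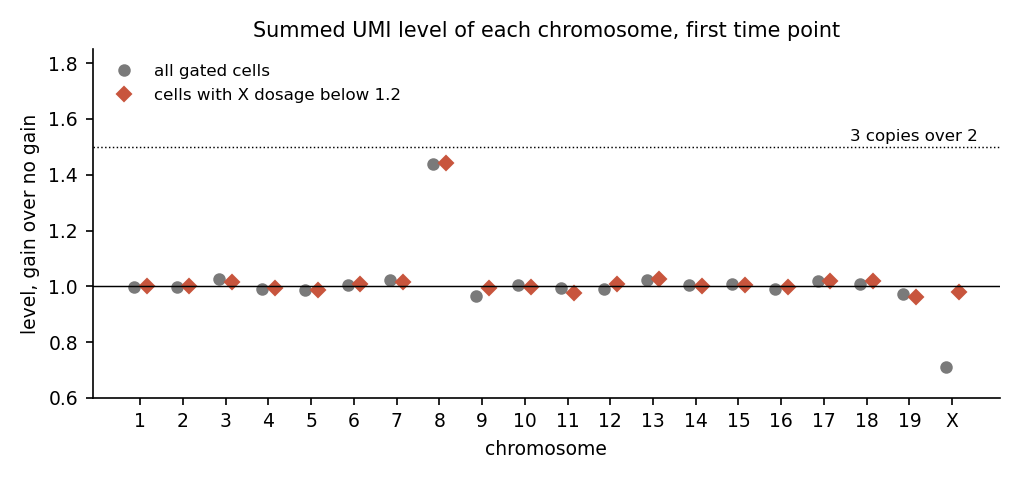
Ratio of each chromosome's summed level in gain over no-gain cells, in all gated cells (circles) and in low-X cells (diamonds); the dotted line marks 3 copies over 2. Chromosome 8 sits at 1.44, the other autosomes between 0.962 and 1.027, and the X moves from 0.711 to 0.981 once X dosage is limited.

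The excess was shared by nearly all genes of chromosome 8 and was not carried by a few. To keep a gene out of its own comparison, cells were chosen anew for each chromosome 8 gene with that gene left out of r8. Of 213 genes with at least 50 UPM in either group, 173 were past 1.3-fold higher in gain cells (81.2% of those measured) and 211 lay above 0. The median log2 difference, with 1 added to each level, was 0.52, or 1.44-fold, and the middle range of genes ran from 1.33-fold to 1.55-fold. In low-X cells 173 of 214 genes were past 1.3-fold (80.8%), with a median of 0.53. In the later library the low-X median was 0.52, or 1.43-fold. The rule fixed the direction of these counts, and only the spread between genes is informative.

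In low-X cells of the first library the naive-state genes on chromosome 8 were among those with the widest differences. Klf2, a zinc finger factor that sustains naive pluripotency, stood at 688 UPM in low-X gain cells and 398 in low-X no-gain cells, a log2 difference of 0.79. Zfp42 stood at 114 against 64.8, a difference of 0.80. Both were past 1.5-fold in low-X cells, and in the later library they were 0.61 and 0.78 higher. In all gated cells Zfp42 was 0.62 higher and the median of the pair was 0.66. The middle range of chromosome 8 genes ended at 0.63 there and at 0.60 in the later low-X cells. The remaining naive genes measured in low-X cells of the first library, all off chromosome 8, were not higher. Klf4 (0.04) and Klf5 (0.06), relatives of Klf2, were level, and Dppa3, a germ cell and naive marker, was 0.39 lower at 331 against 433 UPM.

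In multi-subunit machines read in low-X cells, the chromosome 8 subunits named here were higher, a direction that the rule had fixed. Of their listed and measured partners on other chromosomes, 0 was past 1.3-fold. Psmd7, a lid subunit of the proteasome, stood at 528 against 352 UPM in low-X cells (log2 difference 0.58). Of 33 listed proteasome genes on other chromosomes, 0 was past 1.3-fold in either direction, with a median of -0.02. That list holds neither Psmb10, a chromosome 8 gene that was level, nor the activator genes Psme1 and Psme2, which were lower. These are given below. The ribosomal protein gene Rpl13 was higher by 0.60, at 13868 against 9133 UPM, beside 0 of 72 ribosomal protein genes elsewhere (median 0.05). In all gated cells 4 of those 72 were lower, the X-linked Rpl10 (-0.42), Rpl39 (-0.43) and Rps4x (-0.39) and the autosomal Rpl39l (-0.79). In those cells 4.14% of genes on the reference autosomes and 66.9% of X-linked genes were lower. Of the respiratory chain, Cox4i1 of complex IV was 0.56 higher and Ndufb7 of complex I 0.39 higher, beside 0 of 28 nuclear-encoded partners (median -0.01), of which 1 was lower in all gated cells, the X-linked Ndufa1 (-0.66). Of all 2570 genes measured on the reference autosomes in low-X cells, 0.856% were past 1.3-fold higher and 2.65% lower, with a median of 0.00. The counts of 0 among partners are near that share and show nothing particular to these complexes.

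DNA replication was read in the same way, beside the 80.8% of chromosome 8 genes past 1.3-fold higher in low-X cells. The rule fixed that direction, and the middle range of all measured chromosome 8 genes ran from 0.42 to 0.60. Cdt1 and Orc6, which license replication origins, were 0.61 and 0.62 higher in low-X gain cells, Mcm5 of the replicative helicase 0.55 and Gins4 0.49, while Gins2 was 0.34 higher and short of 1.3-fold. None of 17 replication genes off chromosome 8 was past 1.3-fold (median 0.12), and none of 20 mitosis and spindle genes (median 0.11). Over all genes 0.856% were higher and 2.65% lower, so a count of 0 in lists of this size is near that share. Mki67, the proliferation marker Ki-67, was at 140 against 112 UPM, a difference of 0.32, and was the highest of the mitosis list. Chromosome 8 genes of stress defence were higher too, as most genes of that chromosome were by the rule. Gsr, which recycles glutathione, was 0.58 higher, Hmox1, which breaks down haem, 0.47, and the peroxidase gene Prdx2 0.39. Of 8 other Nrf2 target genes 0 was past 1.3-fold, again near the share of all genes. The metallothionein gene Mt2 was 0.36 higher and Mt1 only 0.19.

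The highest chromosome 8 genes exceeded the copy ratio, and part of that excess went with X dosage. Ufsp2, a protease that removes the ufmylation tag (chr8:45975528-45996958, plus strand), stood at 56.3 UPM in gain cells (54.0 to 58.6) and 26.5 in no-gain cells (26.1 to 27.0), a log2 difference of 1.06. In low-X cells it was 57.6 against 31.3, a difference of 0.86. Dhps, the enzyme that starts hypusine formation on eIF5A, was 0.94 higher in all gated cells and 0.74 in low-X cells. The zinc finger gene Zfp1 was 0.91 and 0.81 higher, and Prmt7, an arginine methyltransferase, 0.90 and 0.79. Dctd, a deaminase of nucleotide metabolism, differed by 0.87 and 0.89 and by 0.79 in later low-X cells, so it was about as high in all 3 readings. Setd6 (0.85 and 0.70), Ankrd37 (0.84 and 0.71) and Ciapin1 (0.83 and 0.76) completed the 8 highest. Ufsp2 overlaps Ankrd37 on the opposite strand, Dhps overlaps Wdr83 and Ciapin1 overlaps Coq9, and whether the counting used strand is not given in the sources used here.

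A few chromosome 8 genes showed little or none of the excess. Gabarapl2, an autophagy gene of the Atg8 family, was lower in gain cells, at 213 UPM (208 to 217) against 280 (279 to 282), a log2 difference of -0.40. In low-X cells that difference vanished, at 207 against 197 (0.07), and in later low-X cells the values were 297 and 303. In all gated later cells Gabarapl2 was at 299 against 499 (-0.74). Cyba, a subunit of NADPH oxidase, gave -0.11 in all gated cells and 0.12 in low-X cells. Later it gave 0.12 in all gated cells and -0.14 in low-X cells. It thus stood at about the same level with and without the extra copy in each reading. Sin3b, a scaffold of histone deacetylase complexes, behaved otherwise: its difference of 0.03 in all gated cells became 0.47 in low-X cells, at 242 against 175 UPM. The no-gain cells of higher X dosage had Sin3b at 281 and Gabarapl2 at 336 UPM, above both low-X groups.

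Junb, an immediate early gene of the AP-1 family, was 0.13 higher in all gated cells and 0.25 lower in low-X cells, at 64.7 against 77.0 UPM. In later low-X cells Junb was 0.44 higher. It overlaps Prdx2 on the opposite strand. Wwc2 (0.05 and 0.20), Arglu1 (0.12 and 0.20), Pet100 (0.17 and 0.20) and Anapc10 (0.18 and 0.43) made up the rest of the 8 lowest. Chosen after their values were seen, 3 more genes were low among low-X cells: Apela, a peptide hormone gene, at 38.5 against 52.8 UPM (-0.45), the immunoproteasome gene Psmb10 at 117 against 114 (0.03), and the interferon-induced Bst2 at 378 against 361 (0.07). Psmb10 stayed level in the later library (-0.04), whereas Apela (0.38) and Bst2 (0.34) were higher there.

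**Figure D3:**
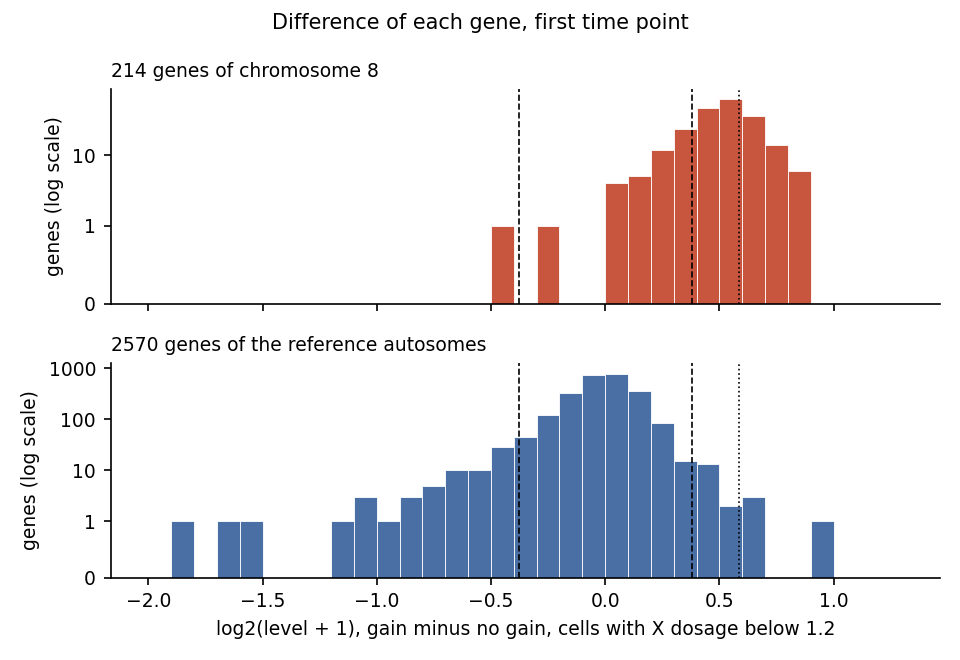
Log2 difference between gain and no-gain cells in the low-X class, for 214 genes of chromosome 8 (top) and 2570 genes of the reference autosomes (bottom); counts of genes are on a log scale, dashed lines mark 1.3-fold and the dotted line 3 copies over 2. Chromosome 8 genes centre on 0.53, the others on 0.00 with a longer tail on the lower side.

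Off chromosome 8 few genes differed, and more were lower than higher. In all gated cells 30 of 2586 genes were past 1.3-fold higher in gain cells (1.16%) and 107 were lower (4.14%). In low-X cells 22 of 2570 were higher (0.856%) and 68 lower (2.65%). Of these, 11 of the higher genes (36.7% of the 30 and 50% of the 22) and 39 of the lower ones (36.4% of the 107 and 57.4% of the 68) were past 1.3-fold in both readings. In low-X cells of the later library 11 of 2583 were higher (0.426%) and 41 lower (1.59%). The trimmed mean of M-values takes genes of all chromosomes, 8 and the X among them, into the scaling. With it the median gene off chromosome 8 lay at 0.05, and 40 genes were higher and 65 lower of 2161 at the floor. Scaled by all UMIs, with about as many genes at the floor (2157), 21 were higher and 81 lower. Gain and line or clone of origin cannot be told apart here, so no gene below is called changed by the gain.

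The widest difference off chromosome 8 was in Ipp (chr4:116507549-116538243, plus strand), which encodes a kelch-repeat actin-binding protein and is known for lying beside an intracisternal A particle promoter in the mouse. Ipp stood at 36.3 UPM in gain cells (34.4 to 38.2) and 145 in no-gain cells (144 to 146), a log2 difference of -1.97. In low-X cells it stood at 32.8 against 124, or 3.69-fold lower. No-gain cells were high in each class: 121 UPM in low-X cells without a Y UMI, 132 in those with at least 2 Y UMIs and 160 in those of higher X dosage. The 199 low-X cells with r8 between the limits were in the middle, at 88.7. Among gain cells, the 346 with r8 below 1.4 had 42.5 and the 606 at or above it 32.8. The 42 gain cells of higher X dosage, whose median r8 was 1.34, had 104 (90.5 to 120), nearer to the no-gain cells. Thinned to 18000 UMIs, a gain cell had a mean of 0.513 Ipp UMIs (SD over cells 1.12) and a low-X no-gain cell 1.75 (SD 2.25), and at least 10% of those no-gain cells had 5 or more.

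In the later library Ipp was again lower in low-X gain cells. It stood at 26.4 UPM in the 2220 low-X gain cells and 84.0 in the 669 low-X no-gain cells. There 11.5% of the low-X gain cells had at least 2 Y UMIs, against 1.05% of no-gain cells of higher X dosage, so the later gain class held cells with Y-linked RNA above that background. The 255 gain cells with Y UMIs had Ipp at 25.7 (22.7 to 29.1) and the 1830 without had 26.0 (24.7 to 27.2), which overlap. Their no-gain counterparts stood at 138 and 73.2. The low level thus occurred in low-X gain cells with and without Y-linked RNA. The 16 later gain cells of higher X dosage had 64.7 (46.4 to 87.7), above the low-X gain cells.

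Baiap2l1 and Pla2g1b were also lower in the low-X gain cells of both libraries, with other patterns across the remaining classes. Baiap2l1 (chr5:144264526-144358112, minus strand), which encodes a membrane-bending adaptor of actin, stood at 18.5 against 59.0 UPM in low-X cells, or 3.07-fold lower. In the later library it was 7.90 against 37.2, both under the floor of 50 UPM, with 6.41 in gain cells with Y UMIs and 8.01 in those without. The 42 early gain cells of higher X dosage had 60.6, near the low-X no-gain cells and below the 84.2 of no-gain cells of higher X dosage. Baiap2l1 overlaps Bri3 on the opposite strand, and Bri3 itself stood at 298 against 288. Pla2g1b (chr5:115466262-115474722, plus strand), a secreted phospholipase, stood at 46.7 against 139 in low-X cells, or 2.93-fold lower, and at 51.2 against 132 later. Its later gain cells had 68.4 with Y UMIs and 47.7 without, against 145 and 132 in their no-gain counterparts. In early no-gain cells of higher X dosage it was only 83.0, so Pla2g1b also varied with X dosage.

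**Figure D4:**
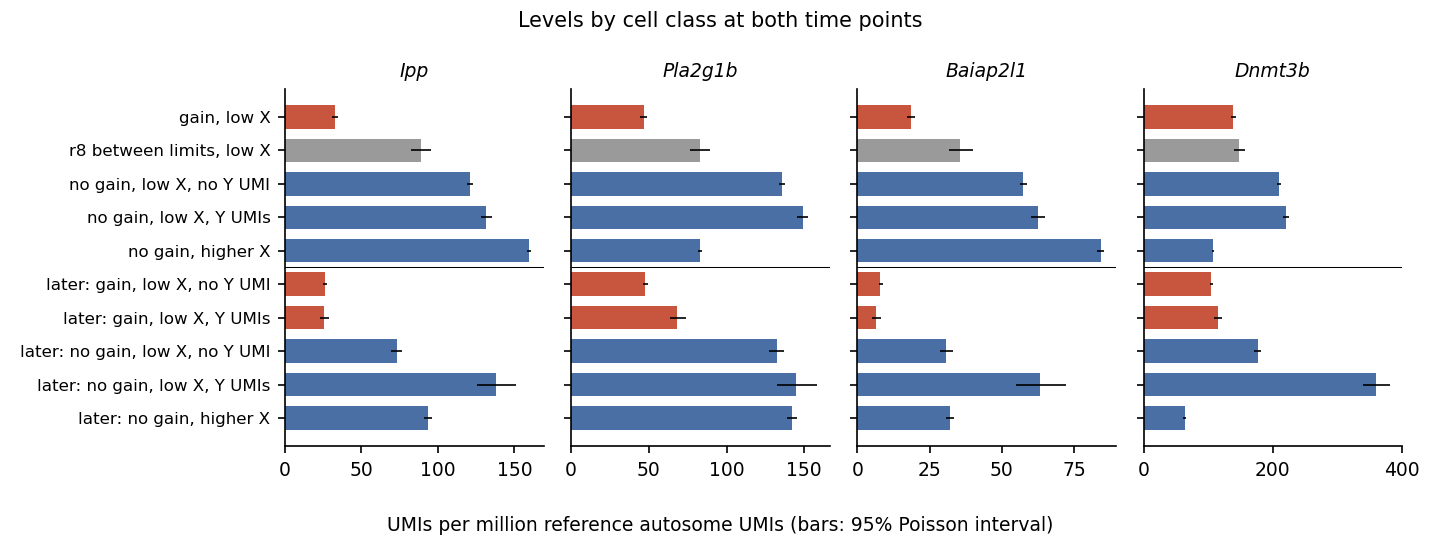
Levels of Ipp, Pla2g1b, Baiap2l1 and Dnmt3b in UPM by cell class, with the first library above the line and the second (later) below it; bars have exact Poisson 95% intervals. Among the classes drawn, Ipp and Baiap2l1 are lowest in the low-X gain classes of both libraries, and Dnmt3b is also low in no-gain cells of higher X dosage.

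Some genes of the actin cytoskeleton and 2 keratins of simple epithelia were lower in low-X gain cells. Cald1, which encodes the actin-binding protein caldesmon, stood at 45.7 against 96.1 UPM in low-X cells (-1.06) and at 44.9 against 83.2 later. Tagln, a smooth muscle actin-binding protein, stood at 71.4 against 158 (-1.13) and at 51.9 against 75.2 later. The keratins Krt8 and Krt18 were 0.90 and 0.97 lower, and the intermediate filament gene Vim 0.51. Within the adhesion and cytoskeleton list, 4 of 12 members off chromosome 8 were lower (2.65% of all genes were), 1 was higher (S100a6, 0.46, a calcium-binding protein), and the median was -0.15. On that list the E-cadherin gene Cdh1 on chromosome 8 was 0.41 higher at 138 against 104. Actb and Actg1, the actins themselves, were at -0.24 and -0.07. In the later library 2 of 9 listed genes off chromosome 8 were lower and 1 higher, with a median of 0.01: Vim was 0.74 lower and S100a6 0.55 higher, against 1.59% and 0.426% of all genes.

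Few primed-state genes reached the level floor. Of 10 on the primed epiblast list 4 were measured in low-X cells, and 3 of these were lower, against 2.65% of all genes: Dnmt3b, a de novo DNA methyltransferase, at 139 against 213 UPM (-0.61), Pou3f1, the Oct6 gene, at -0.84, and Sox4 at -0.89. The gates had limited Fgf5, Fgf8 and Car2, so this list was read in cells already poor in those 3. In the later library Dnmt3b was the 1 member at the floor, and it was lower (-0.88). It was also low at 108 UPM in no-gain cells of higher X dosage. In all gated cells 1 of 3 measured members was lower, Pou3f1 (-0.41), against 4.14% of all genes. Of the other DNA methylation genes, Dnmt1 (0.20), Dnmt3a (0.22), Tet1 (0.25), Uhrf1 (-0.13) and Dnmt3l (-0.21) stayed within 1.3-fold. Later, Dnmt3a was 0.67 lower and Dnmt3l 0.49 lower.

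Core pluripotency genes stayed within 1.3-fold in low-X cells. None of 11 measured there was past it, with a median of 0.02. Over all genes 0.856% were higher and 2.65% lower, so a count of 0 is near that share. Sox2 was at 328 against 317 UPM, Nanog at 109 against 122, and Lin28a, close to the limit, at 98 against 127 (-0.37). Pou5f1, which a gate used and which is among the 11, was at 834 against 821. In all gated cells 2 of 12 were lower, Nanog (-0.58) and Dppa5a (-0.60), against 4.14% of all genes, and the summed marker level was lower as given above. In the later low-X cells 1 of 12 was lower, Fgf4 (-0.39), against 1.59% of all genes, and the median was -0.10.

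Signalling targets were mixed. Of 3 MAPK targets measured in low-X cells, Egr1 at 66 against 114 UPM (-0.78) and Fos at 59 against 91 (-0.63) were lower (2.65% of all genes were), both immediate early genes, and Etv5 was at -0.29. None of the 3 was past 1.3-fold in all gated cells, where 1.16% of all genes were higher and 4.14% lower. Egr1 and Fos were under the floor in the later low-X cells, where 0 of 2 measured targets was past 1.3-fold. There 0.426% of all genes were higher and 1.59% lower, so these counts of 0 are near the share of all genes. Of 8 Nodal and BMP genes in low-X cells 2 were lower, against the same 2.65%, the BMP targets Id2 at 49.7 against 79.4 (-0.67) and Id3 at 156 against 207 (-0.41), and Lefty1, Lefty2 and Nodal were within 1.3-fold. Id2 was 1.02 lower later, when 3 of 7 measured genes of that list were lower, against 1.59% of all genes. In the LIF list Pim1, a kinase gene induced by Stat3, was at 152 against 225 (-0.57) and level later (0.00).

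Imprinted genes are expressed from a single parental copy. Of 10 measured in low-X cells, 5 were lower, against 2.65% of all genes: H19 (58.1 against 81.3, -0.48), Gnas (176 against 246, -0.48), Snrpn (-0.47), Meg3 (222 against 305, -0.46) and Peg10 (-0.43). Of the 10, only Impact was higher, at 98.4 against 69.5 (0.50), and it was level later (0.06), while Peg10 (-0.80), Meg3 (-0.46) and Gnas (-0.40) were the 3 past 1.3-fold lower among 8 measured there, against 1.59% of all genes. Snrpn gave -0.35 and H19 was under the floor, at 25.6 against 48.5. H19 also varied among early low-X no-gain cells, at 56.8 UPM with at least 2 Y UMIs, about the level of the gain cells, and 89.4 without a Y UMI. The noncoding RNA Kcnq1ot1, which was not on that list, was 0.50 higher in low-X cells and 0.05 later. H19 was 1.31 lower in all gated cells, and the no-gain cells of higher X dosage had it at 223 UPM.

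Stress lists were mixed too. None of 18 chaperone genes off chromosome 8 was past 1.3-fold in low-X cells (median 0.04), though Hspb1 was 0.55 lower in all gated cells. Over all genes in low-X cells 0.856% were higher and 2.65% lower, so a count of 0 is near that share. Of 10 genes of the unfolded protein and integrated stress responses 1 was higher, the serine pathway enzyme Shmt2 (97 against 74 UPM, 0.39), against the same 0.856%. None of those 10 was past 1.3-fold in low-X cells without a Y UMI. Mthfd2, a mitochondrial folate enzyme, was 0.48 higher at 199 against 142 and 0.21 later. Of 9 p53 targets 2 were lower in low-X cells, against 2.65% of all genes, Trp53inp1 (-0.49) and Btg2 (-0.44), and Cdkn1a, the p21 gene, was at 91 against 108 (-0.24). Cdkn2a, which encodes p16 and p19Arf, was 0.45 higher at 61 against 44 and 0.65 later. Of 12 cholesterol synthesis genes off chromosome 8, Hmgcs1 (-0.47) and Insig1 (-0.53) were lower (median -0.26, against the same 2.65%), while Msmo1 (0.31) and Mvd (0.30) on chromosome 8 were higher by less than 1.3-fold. In the later low-X cells none of 8 p53 targets, 9 cholesterol, 18 chaperone and 10 stress response genes off chromosome 8 was past 1.3-fold. There 0.426% of all genes were higher and 1.59% lower, so these counts of 0 are near that share. None of 11 mitochondrial transcripts was past 1.3-fold in low-X cells of the first library, also near the share of all genes.

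**Figure D5:**
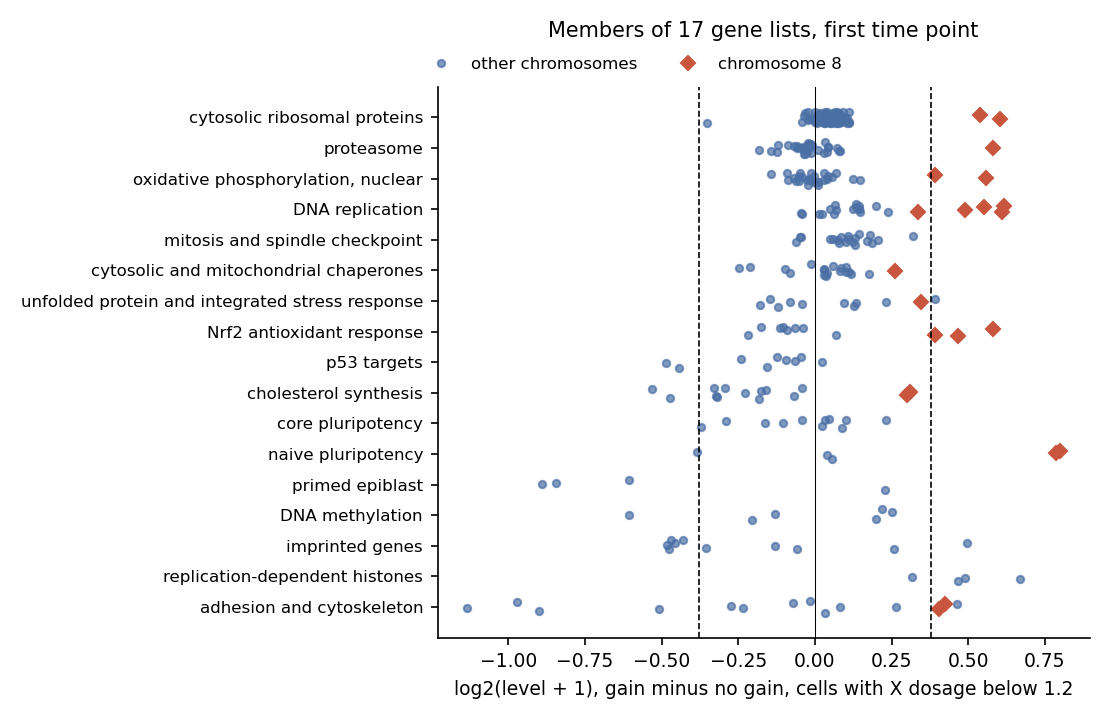
Log2 difference between gain and no-gain cells in the low-X class for each measured member of 17 gene lists, with chromosome 8 members as diamonds and others as circles; dashed lines mark 1.3-fold. Ribosomal, proteasome and respiratory genes cluster at 0, as most genes off chromosome 8 do, apart from their chromosome 8 members. Past the lower line lie 3 of 4 primed epiblast genes and 5 of 10 imprinted genes.

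The genes higher off chromosome 8 were few and differences were smaller. Tcf15, a helix-loop-helix factor linked to the exit from the naive state, stood at 72.0 against 37.7 UPM in low-X cells (69.4 to 74.8 and 36.8 to 38.6), or 1.89-fold. It was at 52.5 against 51.2 in the later low-X cells, so that difference was not seen there. Hist1h1b, the linker histone H1.5, stood at 210 against 132 (0.67) and at 474 against 345 later (0.46). Of 4 replication-dependent histone genes measured, 3 were higher (Hist1h2ap at 590 against 421 and Hist1h2ae at 237 against 171), with a median of 0.48, against 0.856% of all genes higher. In later low-X cells 1 of 7 was higher, with a median of 0.23, against 0.426% of all genes. Their mature messages mostly lack a poly(A) tail and the family shares sequence, so these levels are uncertain. Trh, which encodes thyrotropin-releasing hormone, was 0.80 higher in all gated cells, 0.37 in low-X cells and 0.47 in later low-X cells. It stood at 110 UPM in early no-gain cells of higher X dosage.

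Several of the highest genes did not hold in another reading. Phlda2, an imprinted growth regulator, was 0.73 higher in all gated cells and -0.06 in low-X cells, and Fam3c, a secreted factor, went from 0.57 to 0.15. Nupr1, a stress-induced chromatin factor, was -0.04 in all gated cells and 0.62 in low-X cells, and gave -0.08 in later low-X cells. Mymx, a muscle fusion micropeptide gene, was 0.62 higher in low-X cells and 0.38 lower later. The unnamed gene 2610528J11Rik was 0.50 higher and under the floor later, and Gm11808 was 0.53 higher and 0.60 later. Among the lowest genes, Calcoco2, an autophagy receptor, and Smtnl1, a smoothelin-like protein, were 1.53 and 1.38 lower in all gated cells, and both were under the floor in low-X cells. In the later low-X cells Calcoco2 stood at 116 against 105 UPM (0.15), and Smtnl1 was again under the floor. Platr3, a noncoding RNA of pluripotent cells, was 1.75 lower in all gated cells, and under the floor in both low-X readings. Pdgfa, a growth factor, was 1.04 lower in low-X cells but at 0.08 later.

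The genes past 1.3-fold in the first library were then read in the second. Of the 68 genes lower in low-X gain cells, 44 reached the level floor in the later low-X cells, where 40 lay below 0, 16 were past 1.3-fold lower and 0 past 1.3-fold higher, with a median of -0.30. Over all 2409 genes read in both, 1302 lay below 0 and 1107 above, and 1.54% were past 1.3-fold lower there. Of the 22 higher genes 21 reached the floor, 17 lay above 0, 6 were past 1.3-fold higher and 1 (Mymx) was lower, with a median of 0.21, against 0.457% of all genes higher. Genes lower in both libraries included Ipp, Pla2g1b, Tagln, Cald1, Calml4, Id2, Dnmt3b, Vim, Gnas, Meg3, Peg10 and Tex19.1, and genes higher in both Hist1h1b, Gm11808, Hsf2bp, S100a6, Cdkn2a and Manba. The libraries hold the same lines, so a line that gave most gain cells at both times would give the same lists, and this cannot be told apart from the gain.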

How the data were processed

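Each time point was 1 droplet library of 10x Chromium chemistry 3.1, per the labels. What the authors deposited are raw counts of UMIs for each gene in each barcode. The submitters' processing notes name bcl2fastq 2.20.0.422, Cell Ranger 6.1.2 and the build mm10, which is GRCm38. Gene positions came from GENCODE M21 (GRCm38), which matched 32158 of 32285 genes by identifier. Sample tags were not used here.

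Counts were summed over the cells of a group and scaled to 1000000 UMIs on the reference autosomes (UPM). Differences are log2 of level plus 1, with a floor of 50 UPM in either group, and "past 1.3-fold" is the size rule in place of a test. Sums have exact Poisson 95% intervals and shares exact Clopper-Pearson ones, and UMI counting error is all they cover. X-linked, Y-linked, mitochondrial and gate genes were kept out of the counts over all genes, while counts over a gene list include such members. Named genes were the 8 highest and 8 lowest on chromosome 8, off it in all gated cells, and off it in low-X cells, beside the described members of 31 gene lists and 7 marker lists. A few members that this rule names are not reported here. Members, lists and rules were chosen with earlier results of these data known. Doublets were kept. Scrublet in scanpy 1.11.5 marked 0 of 25962 barcodes with its automatic threshold, which had not worked, so the 10% of highest scores (2596) were removed as an alternative chosen after seeing the data. Functions were tested on simulated data. The software was scipy 1.17.1, pandas 2.3.3 and numpy 2.4.6 under Python 3.11.15, and edgeR 4.0.16 in R 4.3.3 gave scaling factors only.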

Additional observations from a re-analysis of the deposited data

Results flagged for a closer look

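Tcf15, Tagln and Mymx had opposite signs past 1.3-fold in the first and the second library. The difference between libraries was not tested, with 1 library each. In all gated cells Tcf15 was 0.74 higher in gain cells at first and -0.57 in the later library. Tagln was at -0.73 at first and at 0.54 later. Mymx was 0.61 higher at first and at -0.80 later, and within low-X cells its values were 0.62 and -0.38. In low-X cells the later values of Tcf15 and Tagln were 0.03 and -0.53, so of these genes only Mymx kept opposite signs past 1.3-fold in that class. X dosage below 1.2 held for 99.3% of later gain cells and 36.9% of later no-gain cells.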

How the results depend on the processing

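The surplus of lower over higher genes off chromosome 8 held its direction under each alternative run, while counts and shares moved. Every alternative still chose gain cells by r8, so the direction of the chromosome 8 excess was fixed and only its size is read. The gain share of 6.76% became 14.2% in low-X cells, 18.3% in low-X cells without a Y UMI, 4.30% with the gain limit at 1.4, 7.82% with at least 30000 UMIs and 6.11% with r8 made without the abundant chromosome 8 genes. The chromosome 8 median of 0.529, here in cells chosen with all genes, was 0.525 with the gene left out, 0.560 with the limit at 1.4, 0.538 with no gain below 1.1, 0.533 at 30000 UMIs, 0.535 without the highest doublet scores, 0.546 with r8 made without abundant genes, 0.515 scaled by all UMIs, 0.571 by the trimmed mean of M-values, 0.526 as a mean of per-cell values, 0.515 with a level floor of 20, 0.140 with no floor and 0.531 with 0.1 added. The 30 higher of 2586 genes off chromosome 8 became 62 of 4798 at a floor of 20 and 236 of 20858 without one. Of the same 2586, 87 were higher at 1.2-fold and 5 at 1.5-fold. The 107 lower ones became 68 of 2570 in low-X cells (39 of them shared) and 69 of 2570 in those without a Y UMI. Under the trimmed mean 65 of 2161 were lower. With the lower floor 251 of 4798 were lower and with none 1339 of 20858, where more genes were measured. Of 2586, 193 were lower at 1.2-fold and 48 at 1.5-fold. Phlda2 turned to -0.059 in low-X cells, and Gabarapl2 to 0.075 there and 0.062 without a Y UMI. The cause was not tested beyond the added low genes that a lower floor brings in. Of 467 values of the 41 named genes under alternatives, 329 moved by less than their counting interval, 135 moved further and 3, past 1.3-fold at first, changed sign. Genes within 1.3-fold at first that changed sign, such as Junb, Cyba, Nupr1 and Kcnq1ot1, are among the 135. The planned removal of doublets by the automatic threshold left all cells in, so the score limit given above replaced it. No paired analysis was possible because each time point had 1 library and no replicate. With 1 library a time point, the spread between cultures is unknown. With at least 30000 UMIs, 3 of the 41 named genes (Trh, Arglu1 and Tagln) moved further than their counting interval.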

Other observations

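Genes on chromosomes 1, 14 and X, which stood outside the comparison above, were read in the same low-X cells. Among all genes on the reference autosomes there, 0.856% were higher and 2.65% lower, and the shares lower on these chromosomes were 2.48%, 3.77% and 4.04%. These are near that background, so the counts show nothing particular to them, and the genes are given as single values. On chromosome 1, 0 of 161 genes were past 1.3-fold higher in gain cells and 4 were lower, among them Arl4c, a small GTPase gene, at 31.7 against 63.4 UPM (log2 difference -0.98) and Hes6, a transcription factor gene, at 40.6 against 76.4 (-0.89). In the later library both were under the floor. On chromosome 14, 1 of 106 genes was higher (0 in low-X cells without a Y UMI), the adenosine kinase gene Adk at 122 against 93.0 (0.39, and 0.37 later), and 4 were lower. Those included Psme1 and Psme2, the subunits of the interferon-induced proteasome activator, at 169 against 232 (-0.45) and 124 against 206.2 (-0.72), which gave -0.03 and -0.27 later.

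On the X, 0 of 99 genes were past 1.3-fold higher and 4 were lower, in cells whose summed X level differed by a ratio of only 0.981. Rhox5, a homeobox gene active in extraembryonic tissue, stood at 70.7 against 181 UPM (-1.34), and at 181 against 362 in the later low-X cells (-1.001). The kinase gene Pim2 stood at 25.1 against 57.1 (-1.15, and under the floor later), and Klhl13, an adaptor of a ubiquitin ligase, at 120 against 180 (-0.58, and -0.46 later). Nup62cl gave -0.45 and -0.47. These genes were named after their values were seen. Of the mitochondrial transcripts, 0 of 11 were past 1.3-fold in either direction, near the share of all genes given above.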
